A study of Mus musculus with 622 samples.

Results

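Apoe encodes apolipoprotein E, a secreted carrier of cholesterol and phospholipid, and is 1 of the 23845 genes counted in single mouse embryos in this study. It was chosen because it stood out when parthenote morulae given the low dose of miR-200c-3p were set against their controls, so its values in that comparison are a description with no test. Its level was followed here through 342 injected and 183 control embryos in 23 groups, across embryo type, microRNA, dose and stage. The gene lies on the minus strand of mouse chromosome 7, where RefSeq places it at 19696244 to 19701310 of GRCm38, and its transcript NM_009696 has 4 exons, 936 coding bases and a 3′ untranslated region of 136 bases.

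Apolipoprotein E binds lipoprotein receptors on the cell surface, through which cells take up lipoprotein particles, and it accepts lipid that transporters such as Abca1 move out of cells. The gene is read strongly in liver, macrophages and astrocytes, and the liver X receptors raise its transcription where sterols accumulate. An embryo before implantation is not among its classical sources. A microRNA guides Argonaute to transcripts that pair with its seed, bases 2 to 8, and usually lowers them. The miR-200 family is best known for acting on Zeb1 and Zeb2.

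Oocytes came from superovulated FVB/NJ females aged 5 to 7 weeks. They were either activated with strontium chloride into parthenotes, which carry no paternal genome, or fertilized in vitro with sperm of FVB/NJ males aged 8 to 12 weeks. Zygotes received a synthetic microRNA by injection, either miR-200c-3p or miR-465c-3p, and control zygotes received GFP. The low dose was about 200 molecules, and the amounts of the other doses are not given in the sources used here. Late 2-cell embryos were collected singly at 28 hours, 4-cell embryos at 46 hours and compacted morulae at 70 hours. Parthenotes given miR-200c-3p, with their controls, numbered 77 at the 2-cell stage (control, low and mid dose), 93 at the 4-cell stage and 82 at the morula stage (control, low, mid and high dose). Fertilized embryos given miR-200c-3p, with their controls, numbered 42 at the 4-cell stage and 46 at the morula stage. Parthenotes given miR-465c-3p, with their controls, numbered 43 at the 2-cell stage at a dose the labels do not name, and 63 and 79 at the 4-cell and morula stages at the low and high dose. Embryos of about 5 females were pooled on each experimental day and dealt to all treatments. The labels do not say on which day an embryo was made, so the p-values below measure the spread between embryos. The series also holds 93 other embryos and 4 sperm samples, and editing at Apoe was not analysed here.

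The injected sequences are shown because the seed, in capitals, is what could pair with Apoe. They are given 5′ to 3′ as RefSeq places them on GRCm38.p6, miR-200c-3p on chromosome 6 at 124718324 to 124718346 and miR-465c-3p (from Mir465c-1) on chromosome X at 66825965 to 66825986, both on the minus strand.
miR-200c-3p: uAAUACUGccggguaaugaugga
miR-465c-3p: gAUCAGGGccuuucuaaguaga
The match to the whole miR-200c-3p seed, CAGTATT, did not occur in the 1273 bases of the Apoe transcript, read on its own strand, nor did the 6-letter match AGTATT. For miR-465c-3p the 7-letter match CCCTGAT was absent too. The 6-letter match CCTGAT occurred 1 time, at position 1065 of the transcript, in the coding part of exon 4 and outside the 3′ untranslated region. It is printed in capitals within the 30 bases around it, on the minus strand at chr7:19696435-19696464.
Apoe exon 4: ccagtgggcaaaCCTGATggagaagataca
Among 18037 genes whose longest transcript was cut to its last 1273 bases, 11.01% held CAGTATT, 30.6% held AGTATT, 8.44% held CCCTGAT and 29.4% held CCTGAT, each shorter motif being contained in its longer one. Among 21815 genes cut to their last 136 bases, 1.74% held CAGTATT and 0.697% held CCCTGAT. A match is a run of letters and not a measured site.

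Apoe was counted in 522 embryos, all but 3. Its level is given throughout as CPM, the gene's count scaled to a fixed total of all gene counts in the embryo. CPM is not per length, so it is compared between embryos and not between genes. In a whole embryo, fewer cells of a type and less Apoe RNA per cell cannot be told apart. The median embryo held 182 Apoe counts, equal to 59.7 CPM, and the highest held 7466 counts, or 1697 CPM. The 3 embryos at 0 were a control and a low-dose 2-cell parthenote of the miR-200c-3p experiment and a low-dose 4-cell parthenote of the miR-465c-3p experiment. Their depth allows up to 1.14, 2.32 and 2.91 CPM (3 counts of the total, counting error only). Total counts ran between 404357 and 6774820 per embryo, with a median of 3118640. By group medians the stage labels matched their markers in the controls. The summed level of 12 genes of the 2-cell stage and genome activation had a median of 2714 and 2909 CPM in the 2-cell control groups. The medians lay between 26.9 and 98.7 CPM in the 4-cell control groups and between 7.54 and 16.4 CPM in the morula control groups. Single embryos did not all follow. In miR-200c-3p parthenotes the highest 4-cell control held 3044 CPM of this list, and the highest 4-cell embryo of the high dose 18714 CPM.

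**Figure D1:**
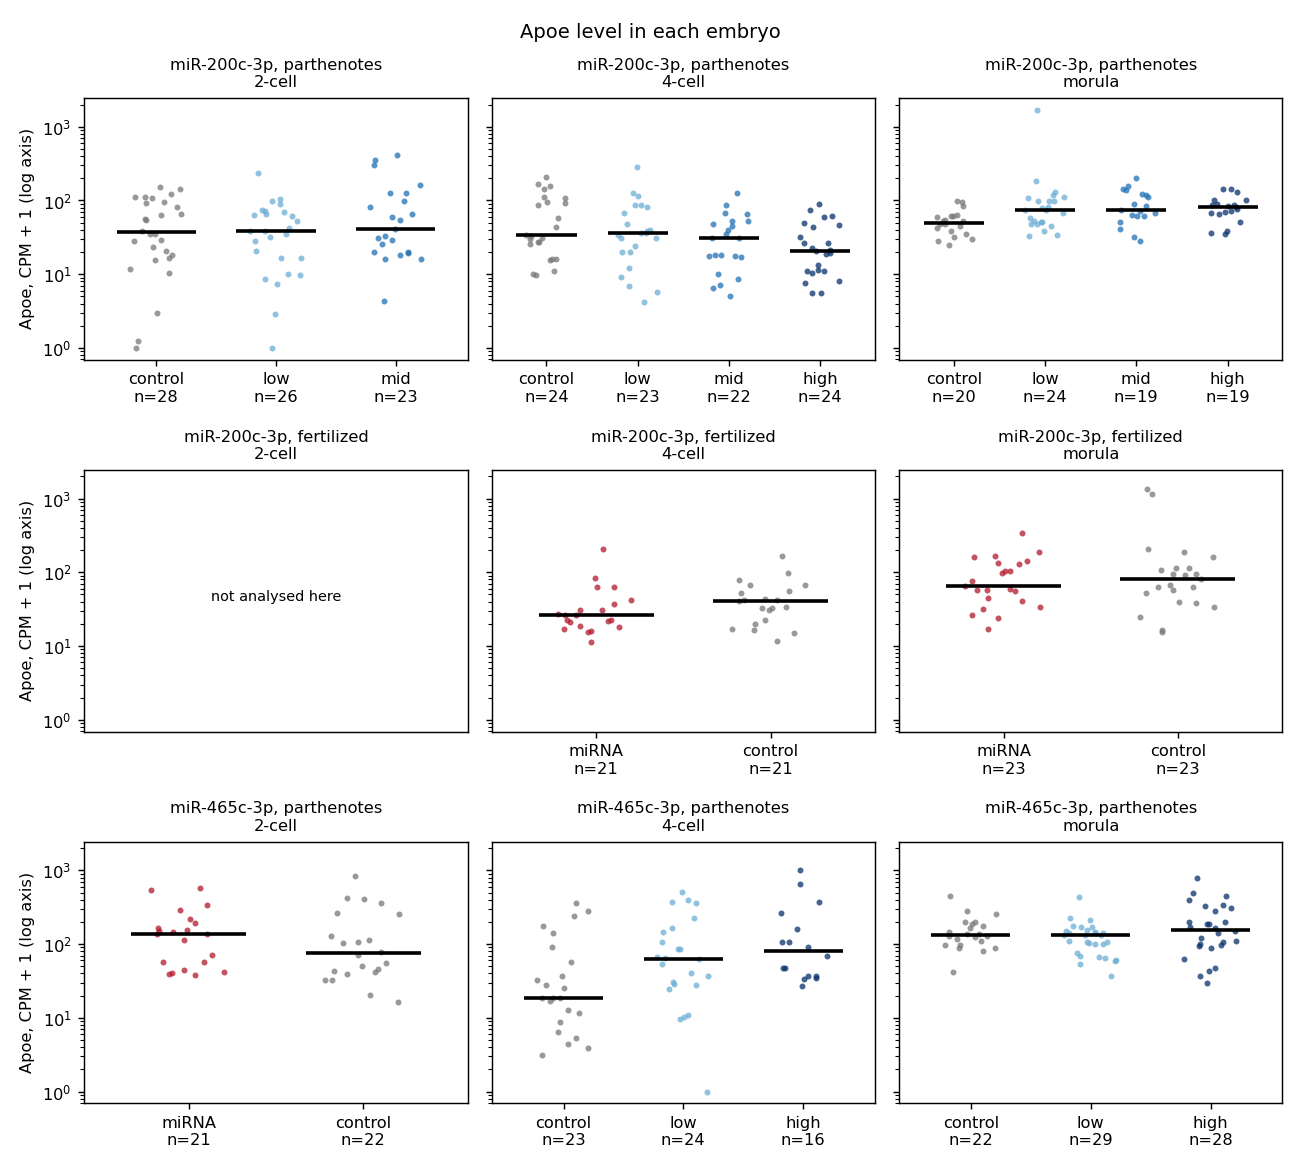
Apoe level of every embryo as CPM + 1 on a log axis, with 1 point per embryo, a bar at each group's median, and the groups set by stage and experiment. The group medians lie between 17.8 and 156 CPM, and single embryos reach 1697 CPM.

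In control embryos the level of Apoe differed by stage and by experiment, and the 3 experiments did not share 1 course. In parthenotes of the miR-200c-3p experiment, Apoe had a lowest, median and highest value of 0, 36.0 and 150 CPM at the 2-cell stage (n = 28), 8.62, 32.7 and 207 CPM at the 4-cell stage (n = 24) and 24.3, 48.9 and 97.3 CPM at the morula stage (n = 20). These groups overlapped almost wholly. In parthenotes of the miR-465c-3p experiment, the control values were 15.2, 73.7 and 851 CPM at the 2-cell stage (n = 22), 2.10, 17.8 and 360 CPM at the 4-cell stage (n = 23) and 40.7, 132 and 453 CPM at the morula stage (n = 22). Here the 4-cell group had the lowest median of all 23 groups, and every morula lay above it. Fertilized controls had 10.7, 40.0 and 168 CPM at the 4-cell stage (n = 21) and 14.3, 81.0 and 1335 CPM at the morula stage (n = 23), with most morulae above the 4-cell median and the ranges overlapping.

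The 8 control groups were compared in 1 fit of edgeR's quasi-likelihood test, with p-values adjusted by Benjamini-Hochberg over the 13027 genes tested and a threshold of 0.05. In the miR-465c-3p experiment Apoe was lower at the 4-cell than at the 2-cell stage by a log2 fold change of -0.99 (SE 0.43, adjusted p 0.0357), in a step at which 66.1% of genes were called. With no filter on low counts that value was -0.93 and did not pass (adjusted p 0.0548). It then rose at the morula stage, by 1.24 over the 4-cell stage (SE 0.43, adjusted p 0.00987), where 55.7% of genes were called, and 22 of 22 morulae lay above the 4-cell median. As differences of mean log2(CPM + 1), which weigh single high embryos less, the same steps were -1.75 and 2.37. In fertilized controls it rose by 2.05 (SE 0.45, adjusted p 4.8e-05), where 53.6% of genes were called, with 17 of 23 morulae above the 4-cell median. Leaving out the 2 highest embryos of each group, an alternative chosen after seeing the data, put that last value at 1.24.

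In parthenotes of the miR-200c-3p experiment the fitted steps were small. The 4-cell level differed from the 2-cell level by 0.32 (95% interval -0.47 to 1.10, adjusted p 0.485, 69.7% of genes called). The morula level differed from the 4-cell level by -0.09, where 54.8% of genes were called. These morula controls are those against which Apoe was chosen, so this value and the other comparisons with them are a description with no test. Scaling moves these stage steps, because the median gene shifts by between -0.42 and 0.29 on the log2 scale when size factors replace TMM factors. Under size factors both values of this experiment changed sign, to -0.10 and 0.09.

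The controls of different experiments also differed at the same stage. At the 2-cell stage Apoe was higher in the miR-465c-3p than in the miR-200c-3p experiment by 1.55 (SE 0.41, adjusted p 0.00191), with 18 of 22 embryos above the other median and 26.4% of genes called. Against the morula controls of the miR-200c-3p experiment, the control morulae of the miR-465c-3p experiment differed by 1.58, with 21 of 22 embryos above the other median, where 3.82% of genes were called. Fertilized control morulae differed from them by 1.87, where 1.94% of genes were called, and by 0.81 without the 2 highest embryos of each group. Both values rest on the controls that chose the gene and have no test here. At the 4-cell stage neither the fertilized embryos (-0.27, 95% interval -1.12 to 0.57, adjusted p 0.747, 15.8% called) nor the parthenotes of the miR-465c-3p experiment (0.25, 95% interval -0.57 to 1.07, adjusted p 0.715, 26.9% called) differed from the parthenotes of the miR-200c-3p experiment beyond their spread. The value of the miR-465c-3p experiment turned to -0.68 as a difference of mean log2(CPM + 1) and to -0.025 without the 2 highest embryos of each group, and its median of 17.8 CPM lay below the 32.7 CPM of the miR-200c-3p experiment. Each stage of each experiment has its own count table, so stage, embryo type, experiment and library preparation cannot be told apart in these steps.

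**Figure D2:**
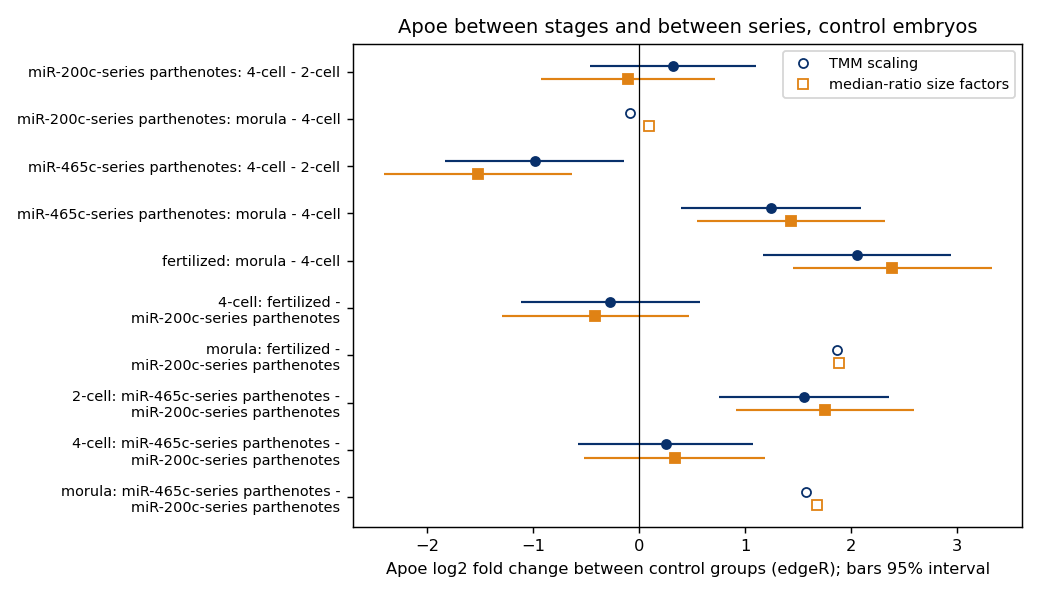
Apoe log2 fold changes between control groups from edgeR, with 95% intervals as bars, for TMM factors (circles) and size factors (squares), and open symbols with no interval where the miR-200c-3p morula controls enter. With TMM factors the morula steps of the fertilized embryos (2.05) and of the miR-465c-3p experiment (1.24) lie to the right of 0. The open symbols, such as the step of those controls (-0.09), are descriptions.

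The injected groups were then set against their controls, which asks whether either microRNA moved Apoe at any stage or dose. The 3 doses of miR-200c-3p in parthenote morulae share the controls by which Apoe was chosen, so they are described with no test. Of the 12 other injected comparisons 4 gave a positive and 8 a negative log2 fold change, between -1.13 and 1.44. None of the 12 passed edgeR's test adjusted over all genes, the lowest adjusted p being 0.331. At an unadjusted p under 0.05 there were 4, and DESeq2 called 0, with 3 under an unadjusted p of 0.05. In those 12 comparisons edgeR called either 0% of the genes tested or, for the mid and the high dose at the 4-cell stage of the miR-200c-3p parthenotes, 0.0188%. A two-sided permutation test of mean log2(CPM + 1) for Apoe alone gave an unadjusted p under 0.05 for 2 of them, the high dose of miR-200c-3p and the high dose of miR-465c-3p, both in 4-cell parthenotes. Adjusted over the 12, a family set after seeing the data, both stood at 0.0500, just above the threshold. Apoe was picked from these data, so an adjustment over values of this gene does not count the other genes it was picked from.

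At the 2-cell stage Apoe had medians of 36.0 CPM in control, 37.6 CPM in low-dose and 40.3 CPM in mid-dose parthenotes of the miR-200c-3p experiment. The low-dose embryos ran between 0 and 234 CPM (n = 26) and the mid-dose embryos between 3.39 and 413 CPM (n = 23), and both overlapped the control range. The low dose differed from the control by -0.09 (95% interval -0.93 to 0.75, adjusted p 1.000). At the mid dose the log2 fold change was 0.83 (95% interval -0.04 to 1.69, adjusted p 0.331). In the miR-465c-3p experiment the lowest, median and highest values were 37.2, 136 and 572 CPM in injected 2-cell parthenotes (n = 21), against 15.2, 73.7 and 851 CPM in the controls. The medians lay apart and the means did not, at 168 ± 153 CPM in injected embryos and 160 ± 201 CPM in controls (SD). The fitted log2 fold change was -0.02 (95% interval -0.88 to 0.84, adjusted p 1.000). In those 43 embryos Apoe also followed the share of counts held by the 10 most abundant genes (r = 0.64 after group means were removed), and the part of that share in the values was not tested.

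At the 4-cell stage the medians of the miR-200c-3p parthenotes were 32.7 CPM in controls, 34.8 CPM at the low, 29.996 CPM at the mid and 19.9 CPM at the high dose. The means, in the same order, were 64.1 ± 57.9, 53.1 ± 60.9, 35.7 ± 30.1 and 28.0 ± 23.4 CPM (SD, n = 24, 23, 22 and 24). All 4 groups overlapped, and the high-dose embryos ran between 4.57 and 90.001 CPM, with 7 of 24 above the control median. Their log2 fold change was -1.13 (SE 0.37, 95% interval -1.86 to -0.40). It missed the test over all genes (unadjusted p 0.00299, adjusted p 0.998) and in the permutation test of Apoe alone the difference in mean log2(CPM + 1) was -1.02, with p 0.00834 and p 0.0500 adjusted over the 12. With the mid and high dose of morulae also counted in the family the adjusted p was 0.0292. Those morula values rest on the controls that chose the gene, so this lower value is no test. Over all alternatives the adjusted p ran from that value to 1.000. The mid dose gave -0.83 (SE 0.38, adjusted p 0.787) and the low dose -0.29 (SE 0.37, adjusted p 0.999).

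Fertilized 4-cell embryos given miR-200c-3p had 10.4, 25.1 and 204 CPM as lowest, median and highest value (n = 21), against 10.7, 40.0 and 168 CPM in controls (n = 21). The ranges overlapped, and the log2 fold change of -0.31 (95% interval -0.91 to 0.29, adjusted p 1.000) did not pass.

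In 4-cell parthenotes of the miR-465c-3p experiment the fitted values were positive. The lowest, median and highest values were 2.10, 17.8 and 360 CPM in controls (n = 23), 0, 62.7 and 514 CPM at the low dose (n = 24) and 25.7, 78.4 and 1010 CPM at the high dose (n = 16). Of the low-dose embryos 20 of 24 lay above the control median, and of the high-dose embryos 16 of 16, while the ranges still overlapped. The high dose gave a log2 fold change of 1.44 (SE 0.57, 95% interval 0.32 to 2.56), with an adjusted p of 1.000 over all genes and an unadjusted p of 0.0144. The permutation test of Apoe alone gave a difference of 1.86 in mean log2(CPM + 1), p 0.00484 and p 0.0500 adjusted over the 12. With the larger family, which includes the morula values on the controls that chose the gene, the adjusted p was 0.0226 and is no test. Over all alternatives the adjusted p ran from that value to 1.000. Without the highest of the high-dose embryos the log2 fold change was 0.97. The low dose gave 0.74 (95% interval -0.28 to 1.77, adjusted p 1.000).

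At the morula stage, the low dose of miR-200c-3p in parthenotes is the comparison for which Apoe was chosen. The lowest, median and highest values were 24.3, 48.9 and 97.3 CPM in controls (n = 20), 31.7, 73.4 and 1697 CPM at the low dose (n = 24), 27.1, 72.4 and 199 CPM at the mid dose (n = 19) and 34.3, 81.5 and 144 CPM at the high dose (n = 19). The 3 injected medians, 72.4 to 81.5 CPM, lay close together and above the control median, and all 4 groups overlapped. At the low dose 18 of 24 embryos lay above the control median, and at the mid and the high dose 16 of 19 each. The fitted log2 fold change of the low dose was 1.52, but 1 embryo carried much of it. That embryo held 1697 CPM, and without it the value was 0.64, the group mean 76.4 ± 36.5 CPM in place of 144 ± 333 CPM (SD), and the control mean 51.5 ± 20.6 CPM. Over the alternatives the value ran between 0.60 and 1.60.

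The mid and high dose share the controls of the low dose, so they are no separate support for it. As a description, the mid dose gave a log2 fold change of 0.80 and the high dose 0.67, and differences of 0.70 and 0.64 in mean log2(CPM + 1), where edgeR called 0% of 10620 genes at either dose. The high dose differed from the mid dose by -0.13 (95% interval -0.77 to 0.51).

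In fertilized morulae the value was negative. Those given miR-200c-3p had 15.96, 65.1 and 337 CPM as lowest, median and highest value (n = 23), against 14.3, 81.0 and 1335 CPM in controls (n = 23). The log2 fold change was -1.05 (SE 0.42, adjusted p 1.000). It was -0.56 without the highest control, and -0.12 without the 2 highest embryos of each group. In parthenote morulae of the miR-465c-3p experiment the values were 40.7, 132 and 453 CPM in controls (n = 22), 35.5, 130 and 434 CPM at the low dose (n = 29) and 28.8, 156 and 782 CPM at the high dose (n = 28). The 3 groups overlapped almost wholly. The low dose gave -0.26 (95% interval -0.74 to 0.23, adjusted p 0.960) and the high dose 0.39 (95% interval -0.11 to 0.88, adjusted p 0.596).

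**Figure D3:**
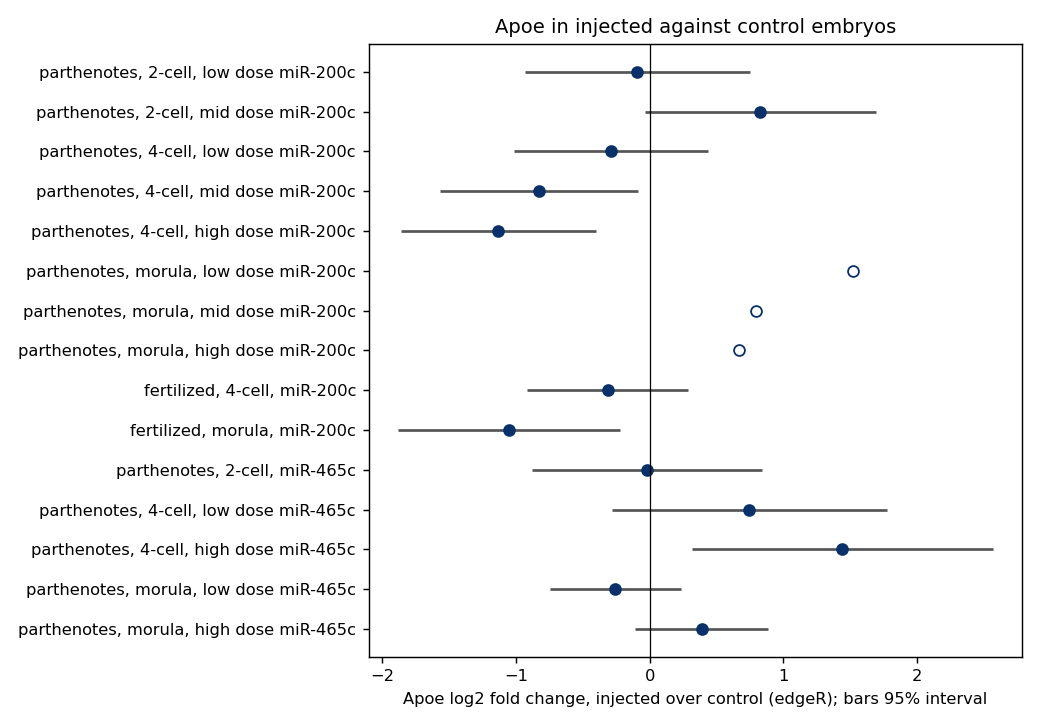
Apoe log2 fold changes of the injected groups over their controls, by stage and dose, with 95% intervals as bars and the 3 doses of miR-200c-3p in parthenote morulae drawn as open circles with no interval, as they share the controls that chose the gene. The values lie between -1.13 (high dose of miR-200c-3p, 4-cell parthenotes) and 1.52 (its low dose, parthenote morulae).

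Doses were compared with each other 6 times, and none of the 6 passed edgeR's test over all genes, nor DESeq2, while each tool had 2 at an unadjusted p under 0.05. In 4-cell parthenotes of the miR-200c-3p experiment, the high dose lay below the low dose by a log2 fold change of -0.84 (95% interval -1.57 to -0.11, unadjusted p 0.0266, adjusted p 1.000), where 0.0377% of genes were called. In morulae of the miR-465c-3p experiment, the high dose differed from the low dose by 0.64 (95% interval 0.19 to 1.10, unadjusted p 0.00727, adjusted p 0.570), where 0.00953% of genes were called. At the 4-cell stage of the miR-465c-3p experiment the same difference was 0.70 (95% interval -0.42 to 1.81), where 0% of 10023 genes were called.

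The injected-minus-control effects on Apoe were also compared between the morula and the 4-cell stage. For miR-200c-3p in parthenotes the morula effect minus the 4-cell effect was 1.80 on the log2 scale at the high and 1.60 at the mid dose. Both values contain the morula controls that chose the gene, so no test of them is given. In fertilized embryos the difference was -0.72 (95% interval -1.78 to 0.34), and 0.37 without the 2 highest embryos of each group. For miR-465c-3p it was -0.99 (95% interval -2.08 to 0.11) at the low and -1.04 (95% interval -2.20 to 0.11) at the high dose. None of the 3 passed edgeR's test of the difference, with adjusted p of 1.000, 0.660 and 0.567.

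Single embryos with far more Apoe than the rest of their group occurred with and without a microRNA. An embryo was set apart when its Apoe CPM was over 5 times its group's median. There were 28 such embryos, namely 15 of 342 injected embryos and 13 of 183 controls. By stage they made up 5.83% of 120 2-cell embryos, 8.08% of 198 4-cell embryos and 2.42% of 207 morulae. The 4-cell parthenotes of the miR-465c-3p experiment held 12 of the 28. Of these 6 were controls, where the limit is low because the group median was 17.8 CPM. A control at 89.6 CPM passed it, a level below the upper quartile of the 4-cell controls of the miR-200c-3p parthenotes, 98.8 CPM. The embryo nearest above the limit, a high-dose morula of the miR-465c-3p experiment, stood at 5.01 times its median.

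Other genes were often high in the same embryos. The number of genes other than Apoe with at least 50 CPM and over 10 times their group's median, after 1 CPM was added to both, was between 17 and 222, with a median of 60, in the 7 2-cell embryos with high Apoe, against 0 to 229 with a median of 10 in the 113 other 2-cell embryos. It was between 4 and 249, with a median of 45.5, in the 16 4-cell embryos, against 0 to 638 with a median of 2 in the 182 others. In the 5 morulae it was between 1 and 76, with a median of 6, against 0 to 25 with a median of 1 in the 202 others. The ranges overlapped at each stage. Some of these libraries held few genes or counts. The high-dose 4-cell parthenote of the miR-465c-3p experiment at 1010 CPM had 249 such genes. It held 7176 genes with at least 1 count, against a group median of 9898.5. A low-dose one at 514 CPM had 414270 total counts, against a median of 3348270. Another high-dose one, at 660 CPM, was deeper than its group, at 5772260 against 2855290. The part of depth in these numbers was not tested. Among the 10 most raised genes of the 28 embryos Tsga8 recurred in 6 and Jade1 in 5, all of them 2-cell or 4-cell embryos. P2rx7, which encodes an ATP-gated ion channel, was among the 10 in 3 of the 5 morulae and in none of the younger embryos.

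The low-dose parthenote morula at 1697 CPM had 6 other genes past that limit, and Apoe ranked 5 by this fold. P2rx7 stood at 155 CPM in it, against a group median of 0.855 CPM, and was followed by Sema6a at 68.9 CPM and Bhlhe41, a transcriptional repressor, at 56.6 CPM. In a fertilized control at 1148 CPM the only gene besides Apoe past that limit was P2rx7, at 224 CPM against a group median of 4.78 CPM. Cd68, a lysosomal membrane protein abundant in macrophages, stood at 58.3 CPM there, against 8.76 CPM. The high-dose morula of the miR-465c-3p experiment, with 782 CPM of Apoe, held 232 CPM of P2rx7, against a group median of 11.9 CPM. The other two morulae differed from these. The fertilized control with the most Apoe, 1335 CPM, had 76 such genes, among them the small heat shock protein gene Hspb1 at 4180 CPM against 42.0 CPM, and the imprinted genes Phlda2 at 452 CPM and Cdkn1c at 298 CPM. The fertilized miR-200c-3p morula with 337 CPM was led by Elovl3 and Ddx4, at 134 and 74.3 CPM, and P2rx7 was at 9.36 CPM.

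Macrophage markers were read in the same 5 morulae. Of the 11 markers counted, between 1 and 3 had any count, and their summed level was 20.5 CPM in the low-dose parthenote, 131 and 60.3 CPM in the fertilized controls with 1335 and 1148 CPM of Apoe, 25.6 CPM in the fertilized miR-200c-3p embryo and 9.79 CPM in the miR-465c-3p embryo. Over whole morula groups the median sum lay between 5.20 and 11.4 CPM, and Csf1r, C1qa, C1qb, C1qc, Tyrobp, Lyz2, Fcer1g and Ptprc were at a group median of 0. In the low-dose parthenote Cd68, at 20.5 CPM, made up that sum, which lay above all 23 others of its group (0 to 16.7 CPM). In the fertilized control with the most Apoe Cd68 held 123 of the 131 CPM, a sum above the 22 others of its group, whose highest was 60.3 CPM. The summed level of 18 cumulus and granulosa genes was 158 CPM in the low-dose parthenote, against 5.63 to 113 CPM in the 23 others, and 204 CPM in that fertilized control, against 29.4 to 147 CPM in the others. In the other 3 morulae it lay within the range of their groups. Such a sum can come from few genes. In the 4-cell controls of miR-200c-3p parthenotes it had a median of 300 CPM, with 17 of the 18 genes, all but Amhr2, at a median of 0. Which genes carried it in these morulae is not given here. The fertilized control with the most Apoe held 263 CPM of the 2-cell and genome activation list, against at most 85.6 CPM in the others, and 152 CPM of the primitive and visceral endoderm list, against at least 219 CPM. In the low-dose parthenote the summed level of 11 trophectoderm genes, 1016 CPM, lay below all 23 other embryos of its group, which ran between 1523 and 9977 CPM. What part these levels have in the Apoe values was not tested.

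**Figure D4:**
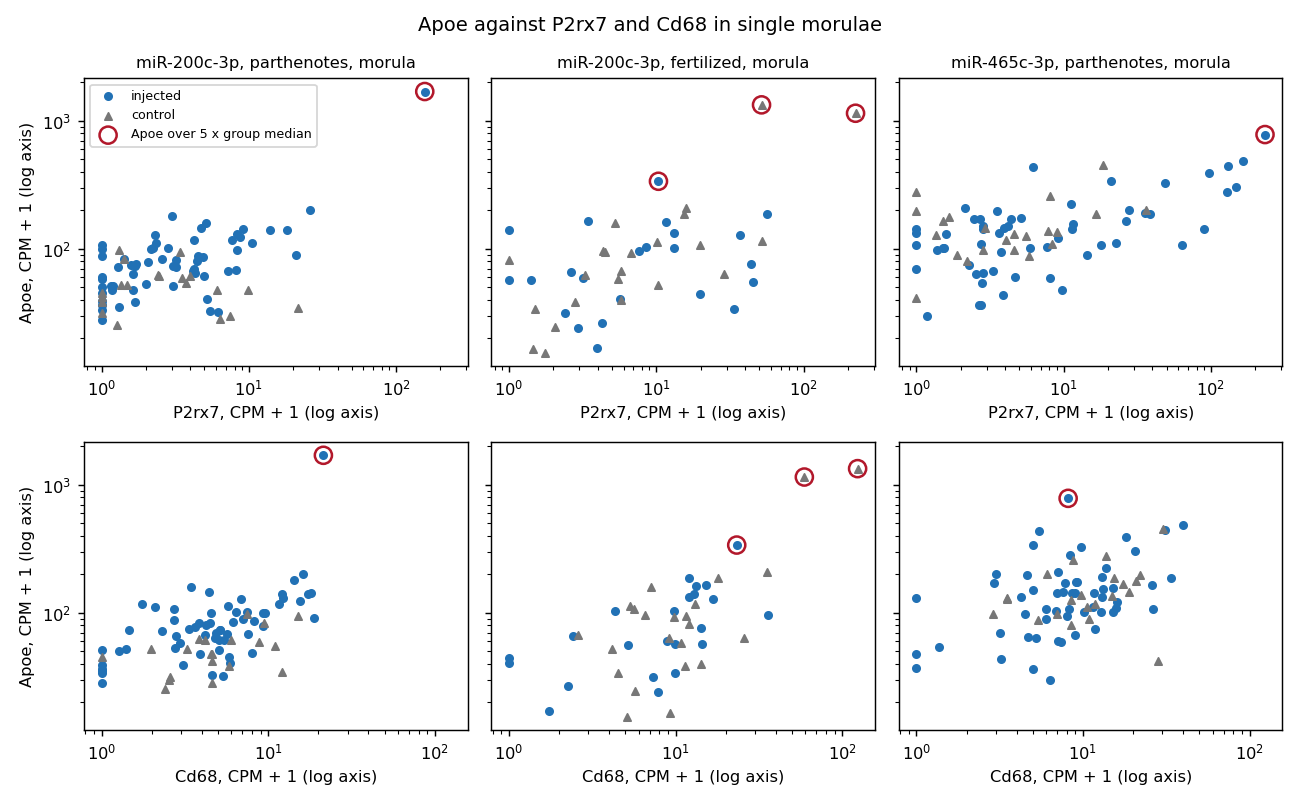
Apoe against P2rx7 and against Cd68 in the morulae of the 3 experiments, each axis as CPM + 1 on a log scale, with 1 point per embryo (circles injected, triangles control) and a ring around embryos over 5 times their group's median of Apoe. In 3 of the 5 ringed embryos P2rx7 stood at 155, 224 and 232 CPM, the highest value of each panel.

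P2rx7 and Cd68, both named above from morulae with high Apoe, were then set against Apoe across all morulae. After group means were removed, r for P2rx7 was 0.56 in the 82 miR-200c-3p parthenotes, 0.57 in the 46 fertilized embryos and 0.56 in the 79 miR-465c-3p parthenotes. Without the embryos over 5 times their median it was 0.38, 0.42 and 0.53. For Cd68 r was 0.60, 0.66 and 0.41, and without those embryos 0.59, 0.48 and 0.43. By Spearman's rho the values were 0.42, 0.50 and 0.48 for P2rx7 and 0.57, 0.63 and 0.38 for Cd68. P2rx7 had group medians between 0.855 and 11.9 CPM in morulae. The embryos in which both genes were first seen are among those correlated. The share of all genes with such an r was not counted. The points are embryos that share collection days, pools of females and library preparation, so these are descriptions. P2rx7 itself had a log2 fold change of 2.98 at the high dose of miR-465c-3p in morulae (SE 0.64, adjusted p 0.0569), where that of Apoe was 0.39.

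Which other genes followed Apoe from embryo to embryo was read from correlations inside the groups, over 5037 genes with at least 10 CPM on average in each of the 8 count tables. The correlations were weak, and 60 genes had a mean r over 0.2. At the top stood Gpx1, a glutathione peroxidase, with a mean r of 0.35 that ran between -0.04 and 0.61 over the 8 tables. It was followed by Pttg1, which encodes securin, at 0.32 with a positive r in 8 of 8 tables, by Uap1l1 at 0.30 and by Cstb, an inhibitor of cathepsins, at 0.29. The next 6, between 0.28 and 0.29, were Slc3a2, the heavy chain of amino acid transporters, Gnl1, the histone methyltransferase gene Kmt2d, the endoplasmic reticulum gene Sdf2l1, the sialic acid synthase gene Nans and the cell cycle inhibitor gene Cdkn1a. The most negative were Tmem50b at -0.39, Cnbp, a nucleic acid binding protein, at -0.37, Ufd1l, which acts in protein degradation, at -0.36, Timm23 of the mitochondrial import channel at -0.35 and the cullin gene Cul5 at -0.33. Of the 10 highest, 6 were also among the 10 highest by Spearman's rho, and 6 without the embryos over 5 times their median. In 2-cell parthenotes of the miR-465c-3p experiment Apoe followed the share of the 10 most abundant genes (r = 0.64). The r furthest from 0 came from those embryos for Gpx1 (0.61), Cstb (0.69), Cnbp (-0.69), Ufd1l (-0.68) and Timm23 (-0.66). For the other genes named here it came from elsewhere. The part of that share in these values was not tested.

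Taken stage by stage, a division made after seeing the data, other genes led. Means over 2 or 3 tables are not comparable in size with the means over 8 above. In 2-cell embryos they were Tmsb10, a thymosin that binds actin, with a mean r of 0.63 over 2 tables, Lgals1, which encodes galectin-1, at 0.62, and Ptrf, a coat protein of caveolae, at 0.61. Their r was 0.69, 0.65 and 0.74 in the miR-465c-3p experiment, where Apoe followed the share of the most abundant genes. It was 0.56, 0.58 and 0.48 in the miR-200c-3p experiment. In 4-cell embryos they were Rsrp1 at 0.58, the protein N-terminal methyltransferase gene Ntmt1 at 0.51 and Foxr1, a forkhead gene, at 0.50 over 3 tables. In morulae Uap1l1 led at 0.58, ahead of Urod of heme synthesis at 0.55 and Cdk4 at 0.51, and Cstb at 0.50, the metallothionein gene Mt1 at 0.49 and Gpx1 at 0.49 were also among the first. The lysosomal hydrolase genes Dpp7, at 0.49, and Ctsa, at 0.48, stood near them.

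That last feature was followed with a list of 41 lysosomal genes, written after the morula genes had been seen and therefore only described. In morulae 35 of them passed the level limit. Dpp7 and Ctsa, seen first, are among the 35, so the morula counts include genes already known to follow Apoe. Their r with Apoe was positive for 27 of 35 in miR-200c-3p parthenotes, 25 of 35 in fertilized embryos and 33 of 35 in miR-465c-3p parthenotes, beside 46.1%, 41.4% and 45.7% of the 6952 genes measured. The median r of the list was small, at 0.087, 0.17 and 0.20, and without the 1, 3 and 1 embryos over 5 times their group's median of Apoe it was 0.046, 0.14 and 0.18. In 4-cell embryos 8, 9 and 10 of 26 were positive, in the same order of experiments, beside 51.0%, 50.9% and 49.6% of all genes. In 2-cell parthenotes 23 of 28 were positive in the miR-200c-3p and 7 of 28 in the miR-465c-3p experiment, beside 60.3% and 32.7% of all genes.

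The genes most like Apoe over the 23 group means of log2(CPM + 1) were Clk3, a kinase of splicing factors (r = 0.89), Ddx39, an RNA helicase (0.86), Gps1, a subunit of the COP9 signalosome (0.84), Ints9 of the Integrator complex (0.83) and Pvrl2 (0.82). The rest of the first 10 were Akap8l, the histone demethylase gene Kdm6b, Tmed9, Ubac1 and the adiponectin receptor gene Adipor1, down to r = 0.79. The points share experiments and stages, and no test was made of these values. Pvrl2, which encodes nectin-2, lies near Apoe on chromosome 7.

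The genes that work with Apoe were read from lists of apolipoproteins, lipoprotein receptors, lipid efflux and liver X receptor genes, and chromosome 7 neighbours. In the 15 injected comparisons between 5 and 7 of 15 further apolipoproteins, 7 to 11 of 14 receptors, 7 to 12 of 15 efflux and liver X receptor genes and 5 to 7 of 9 neighbours passed the filter on low counts. In all this gave 446 values of 39 genes, of which edgeR called 0, where 0% or at most 0.0188% of all genes were called. At an unadjusted p under 0.05 there were 14. Over all genes such values ran, by comparison, from 94 of 9682 (miR-465c-3p, 2-cell parthenotes) to 1857 of 11202 (mid dose of miR-200c-3p, 2-cell parthenotes). The 14 are therefore not read as a feature of the lists. List medians lay between -0.47 and 0.39, and those of all genes between -0.04 and 0.04.

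In control embryos the same lists were read by stage. Over both directions 54.8%, 53.6% and 55.7% of all 13027 genes were called between the 4-cell and the morula stage in miR-200c-3p parthenotes, fertilized embryos and miR-465c-3p parthenotes, so many calls in a list are no feature of that list. Between the 4-cell and the morula stage 6 of the 12 lipoprotein receptors and their partners tested rose and 1 fell in miR-200c-3p parthenotes, 8 rose and 1 fell in fertilized embryos, and 5 rose and 1 fell in miR-465c-3p parthenotes. Beside them 25.8%, 28.3% and 26.9% of all genes were called higher. With size factors the counts were 6 and 1, 8 and 0, and 5 and 2. Lrp2, the large endocytic receptor also called megalin, had medians of 183, 76.1 and 120 CPM in the morula controls of the miR-200c-3p parthenotes, the fertilized embryos and the miR-465c-3p parthenotes, against 4.36, 0 and 0 CPM at the 4-cell stage. The filter on low counts was set over the 8 control groups together. A gene near 0 before the morula stage, such as Lrp2, can pass it through the morulae alone and could hardly be called lower there. This holds for all genes and lists in these counts. Lrpap1, the chaperone of these receptors, rose by 1.44, 1.38 and 0.91 on the log2 scale in the same order.

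Of the 8 other apolipoproteins tested 5 rose and 2 fell in miR-200c-3p parthenotes, and 4 rose and 2 fell in each of the other two experiments, with the same counts under size factors. Of all genes 29%, 25.3% and 28.8% were called lower in miR-200c-3p parthenotes, fertilized embryos and miR-465c-3p parthenotes, and the shares called higher are those given above. Apoc1, whose product is carried on the same lipoproteins and which lies beside Apoe, rose by 1.88, 1.58 and 1.73 on the log2 scale in miR-200c-3p parthenotes, fertilized embryos and miR-465c-3p parthenotes, while the value of Apoe in the first of these was -0.09. Apom, an apolipoprotein of HDL that carries sphingosine 1-phosphate, fell by 1.55, 2.54 and 2.61 in the same order. Apoa1, the main protein of HDL, was at a median of 0 CPM in the 4-cell controls of all 3 experiments and at 10.7, 15.3 and 8.93 CPM in their morula controls. Like Lrp2, it could pass the filter through the morulae alone. Among the efflux and liver X receptor genes 7 of 14 rose in each experiment, beside the same shares of all genes, and 1, 1 and 2 fell. With size factors 7, 8 and 7 rose. Srebf1, a transcription factor of lipid synthesis and a liver X receptor target, had medians of 137, 108 and 127 CPM in morula controls, against 30.8, 23.2 and 15.6 CPM in 4-cell controls. The liver X receptor gene Nr1h3 fell by 1.82, 2.07 and 2.47 on the log2 scale in the same order. The other liver X receptor gene, Nr1h2, had values of 0.00, 0.19 and -0.44, none of which passed.

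Among the 7 chromosome 7 neighbours tested, Pvrl2 rose by 1.89, 2.14 and 1.30 on the log2 scale at the morula stage, again in the order miR-200c-3p parthenotes, fertilized embryos and miR-465c-3p parthenotes. Relb, a subunit of NF-kappa B, fell by 2.90, 2.96 and 3.63. At the 2-cell stage all 7 neighbours were higher in controls of the miR-465c-3p than of the miR-200c-3p experiment, as Apoe was, where 12.8% of all genes were called higher, and with size factors 6 of 7 were. Among them were Pvrl2 by 1.56, the mitochondrial import gene Tomm40 by 1.32 and Apoc1 by 0.99. Their medians in the miR-200c-3p and miR-465c-3p controls were 32.9 and 120 CPM, 52.7 and 224 CPM, and 0.788 and 1.68 CPM. Of the 9 neighbours counted, Apoc4, Bcam and Cblc had a median of 0 CPM in both groups. The 7 tested therefore cannot all lie above that floor. At the morula stage, where the value of Apoe between the same experiments was 1.58, 0 of the 7 were called by edgeR, 0 had an unadjusted p under 0.05, and 0.676% of all genes were called higher.

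**Figure D5:**
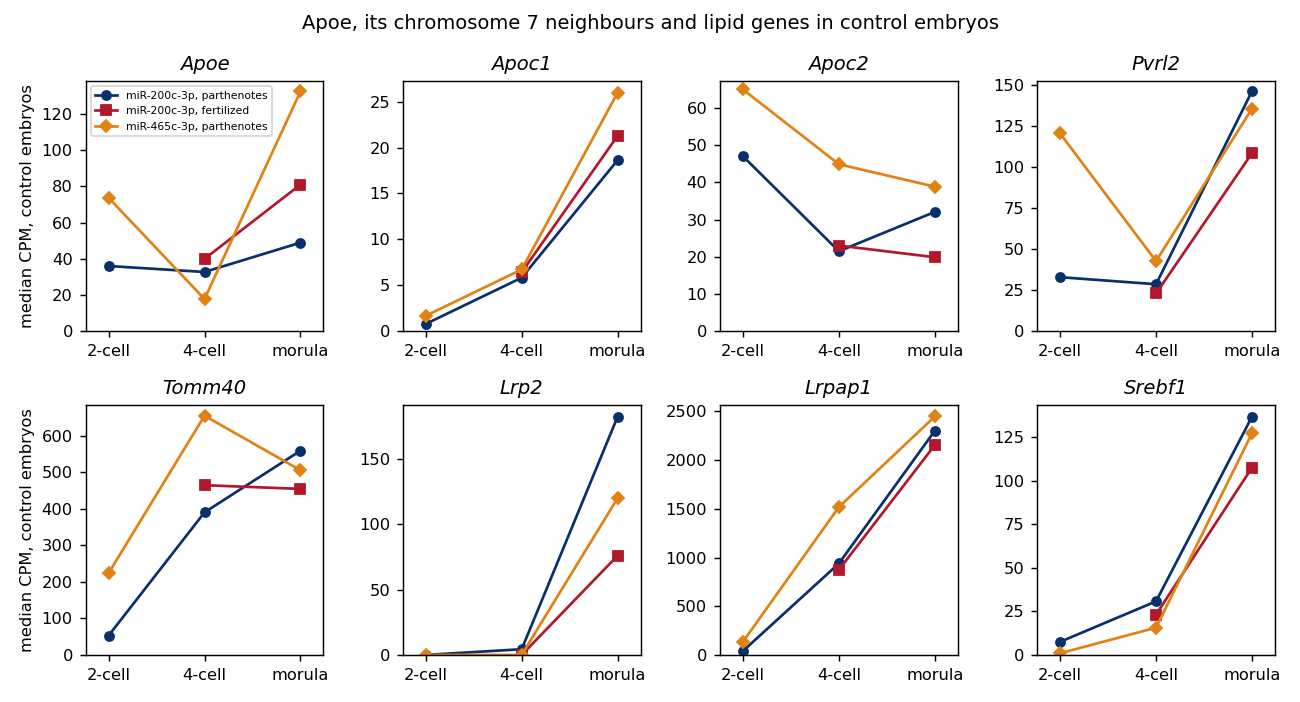
Median CPM of Apoe and of 7 other genes in the control groups by stage, 1 panel per gene with a linear axis that starts at 0, and 1 line per experiment. Apoc1, Lrp2 and Lrpap1 are higher in the morulae of all 3 experiments, while the Apoe lines cross at the 4-cell stage, where that of the miR-465c-3p parthenotes is lowest at 17.8 CPM.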

How the data were processed

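Single-embryo SMART-Seq libraries were mapped to mm10 with RSEM, per the labels' protocols, and the authors deposited expected counts per gene in 8 tables, 1 per experiment and stage. Tools listed without a role in the submitters' processing notes are STAR, featureCounts, FastQC, cutadapt, DESeq2 1.48.2 and R 4.5.1. Expected counts were rounded, and CPM was computed over all genes of an embryo. Groups came from the sample titles. edgeR 4.0.16 in R 4.3.3 (TMM factors, filterByExpr, quasi-likelihood test) was fitted to all groups of a table, to the 8 control groups together, and to pairs of tables for differences between effects. Intervals are at the 95% level, from the SE. Apoe alone was compared by a two-sided permutation test of mean log2(CPM + 1) with 100000 resamples, adjusted over the comparisons of its family. Comparisons with the morula controls of miR-200c-3p parthenotes, through which Apoe was chosen, are reported with no test. Alternatives were DESeq2 1.42.0, size factors, no filter on low counts, a replicate block, bands of 8 embryo numbers, and fits without the highest embryos. Total counts per embryo, 404357 to 6774820, set the precision of low values, and library type by strand is not given in the sources used here. No 2 embryos of a table had identical values.

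Named beside Apoe are the 10 genes with the highest and the 5 with the lowest mean correlation, the 10 most alike over group means, up to 10 genes of at least 50 CPM per embryo with high Apoe, and members of fixed lists. Apoe, the lists and the tests were chosen with earlier results of these data known. Embryo numbers were checked as pairs: over 24 pairs of groups, deviations of same-numbered embryos in Apoe correlated between -0.37 and 0.50 (median 0.09). The check used 1 gene and few embryos per pair of groups, so it cannot decide whether numbers pair embryos. The numbers were not used as pairs in the main fits. A gene of the receptor list is counted in its totals and not reported here.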

Additional observations from a re-analysis of the deposited data

Results flagged for a closer look

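The fitted step of Apoe between the 4-cell and the morula stage of controls was larger in fertilized embryos than in parthenotes of the miR-200c-3p experiment, by 2.14 on the log2 scale, in a comparison added after the data had been seen that called 3.02% of 13027 genes. It contains the morula controls by which Apoe was chosen, so it is a description with no valid test. Without the highest embryo of each group the value was 1.78 and without the 2 highest 1.14. Between the parthenotes of both experiments the morula step differed by 1.33, which rests on the same controls. Their step to the 4-cell stage, which does not, differed by -1.30 and did not pass edgeR's test (adjusted p 0.124).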

How the results depend on the processing

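Over 39 comparisons and 266 alternative values of Apoe, 230 were counted as unchanged, which means the same direction and the same side of the threshold. The low dose of miR-200c-3p in parthenote morulae has no p-value. Its 8 alternatives counted as unchanged when within 1.14, the SD of log2(CPM + 1) in its embryos, of the fitted 1.52. That is a wide limit, because the SD includes the embryo at 1697 CPM, against an SD of 0.55 in the controls. A value of 0.60 thus counted as unchanged. The total also counts the other comparisons with those controls, although they have no test. Of the injected comparisons, the high dose of miR-200c-3p in 4-cell parthenotes passed with no filter on low counts (-1.13, adjusted p 0.0355). In the permutation test neither it (-1.02) nor the high dose of miR-465c-3p (1.86) passed over the 12 comparisons with other controls. Both fell under the threshold when adjusted over 14 comparisons. That is no test, because the 14 include the mid and high dose of miR-200c-3p in morulae. These gave 0.70 and 0.64 in the permutation test and rest on the controls that chose Apoe. Values near 0 changed sign: in 2-cell parthenotes the low dose of miR-200c-3p gave 0.012 without the highest control, and miR-465c-3p gave 0.00051 with no filter, 0.044 with number bands, 0.18 without the 2 highest embryos of each group, 0.34 without the highest control and 0.41 in the permutation test. The low dose of miR-465c-3p in morulae gave 0.018 with number bands.

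The embryo number was also fitted as a replicate block, although the labels do not say that numbers pair embryos. No adjusted p passed, and 3 values changed sign. They were 0.0047 for the low dose of miR-200c-3p and 0.37 for miR-465c-3p in 2-cell parthenotes, and 0.075 for the low dose of miR-465c-3p in morulae. The block put the low dose of miR-200c-3p in parthenote morulae at 0.73. It put miR-200c-3p in fertilized morulae at -0.34 (SE 0.30).

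Among controls of the miR-200c-3p parthenotes, the step to the 4-cell stage was -0.10 under DESeq2 and under size factors. The step to the morula stage was 0.093 and 0.094 under them, 0.065 without the highest embryos, 0.10 without the 2 highest and 0.18 in the permutation test. In the miR-465c-3p experiment the step to the 4-cell stage did not pass with no filter (-0.93, adjusted p 0.0548). Fertilized minus parthenote morulae was 1.44 without the highest embryos, 0.81 without the 2 highest and 0.80 in the permutation test. The 4-cell difference between the parthenote experiments was -0.025 without the 2 highest and -0.68 in the permutation test.

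Among differences between stages, which for miR-200c-3p parthenotes rest on the same controls and have no test, the mid dose gave 1.59 without the 2 highest embryos of each group, and the high dose 1.88 with size factors, 1.79 without the highest embryos and 1.84 without the 2 highest. In fertilized embryos the value was 0.37 without the 2 highest, and the added difference between control steps was 1.78 without the highest and 1.14 without the 2 highest. The causes were not tested.

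Limits are that p-values describe embryos whose day of collection is not labelled, and that 10 embryos had under 10 Apoe counts. The amounts of the mid and high doses are not given in the sources used here, so doses are compared by name.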
